A study of Mus musculus with 9 samples.

Results

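A set of 10 genes of the cell's stress responses was followed in cerebral cortex of mouse embryos: Atf4, Ddit3, Trib3, Chac1, Asns and Psat1 of the integrated stress response, and Hspa5, Herpud1, Xbp1 and Dnajb9 of the response to unfolded protein in the endoplasmic reticulum (ER). They were chosen by name and taken from the deposited expression table where its gene column held that name, which gave 9 of the 10 among 14670 genes. Trib3 was not listed. RNA was sequenced from 9 cortical samples at embryonic day 16.5, 3 controls, 3 Fzd3 -/- mutants and 3 Celsr3 -/- mutants, all on a mixed C57Bl/6 and CD1 background. Celsr3, an atypical cadherin, and Fzd3, a Frizzled receptor, belong to the planar cell polarity genes, and the study concerned their part in cortical neurogenesis. Both mutations are constitutive, so every cell of the cortex carried them. The labels give the controls as +/+, whereas the methods give them as littermates, either heterozygous or wild type. The labels name Trizol for the RNA and the methods an RNeasy kit. Control and Fzd3 mutant libraries are numbered 1, 2 and 3 and Celsr3 mutant libraries 1, 2 and 4, and values below are given in that order. The methods give 3 samples of each genotype for sequencing and at least 3 animals for animal experiments in general. Neither they nor the labels say that each library came from a separate animal, so the p-values measure the spread between these samples, which may be technical in part. Xist, an X-linked RNA given below, differed widely within the controls and within the Celsr3 mutants. The libraries of those genotypes are thus not all repeats of a single sample, but which came from separate animals is not known. Values are CPM, read counts scaled to the size of each library. Depth, taken from the step between values, ran from 39857305 to 69600589 reads, and 3 reads corresponded to between 0.0427 and 0.0752 CPM, for counting error only.

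The integrated stress response is a control of translation. Kinases that sense unfolded protein in the ER, lack of amino acids, lack of haem or double-stranded RNA phosphorylate the initiation factor eIF2alpha, which lowers translation in general but raises that of Atf4, and ATF4 protein then activates genes of amino acid synthesis and transport, tRNA charging and cell death. The ER sensors IRE1 and ATF6 act beside it and activate ER chaperones and the disposal of misfolded protein, and signalling through the ER kinase PERK and Atf4 is known to act in cortical progenitors. Because ATF4 is controlled by translation and XBP1 by splicing of its RNA, the RNA level of a gene here is not the activity of its protein.

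Marker genes matched the label of the tissue: the neuronal genes Neurod6 and Dcx and the progenitor genes Pax6 and Eomes were present in all 9 libraries. Celsr3 itself stood at 196, 243 and 214 CPM in the controls, 253, 213 and 255 CPM in the Fzd3 mutants and 122, 139 and 118 CPM in the Celsr3 mutants. All 3 Celsr3 mutant libraries lay below all others, and Celsr3 fell by 0.78 on the log2 scale (SE 0.0910, adjusted p = 0.00180) against control, a call lost with a replicate block and with the ordinary test per gene. Fzd3 stood at 58.0, 67.7 and 46.9 CPM in the controls, 46.5, 39.8 and 59.6 CPM in the Fzd3 mutants and 52.1, 61.1 and 54.8 CPM in the Celsr3 mutants. The Fzd3 mutants overlapped the controls, with a log2 fold change of -0.24 (SE 0.147, adjusted p = 0.240), which passed the threshold only without Fzd3 mutant 3 (adjusted p = 0.0457) among the libraries left out in turn. The table holds no values per exon, so transcripts of the mutant allele cannot be told from intact ones.

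Some libraries stood apart in ways the genotype does not describe. Xist, the RNA of the inactive X chromosome and named after its values were seen, stood at 812, 850.2 and 0.803 CPM in the controls, 998, 1008 and 1147 CPM in the Fzd3 mutants and 806, 0.744 and 806 CPM in the Celsr3 mutants. Control 3 and Celsr3 mutant 2 were thus near 0 and the other 7 libraries high, with all 3 Fzd3 mutants above all others. Eif2s3x, the X-linked gene of an eIF2 subunit, was lower in the same pair of libraries, at 462, 459 and 294 CPM in the controls, 397, 398 and 412 CPM in the Fzd3 mutants and 440.2, 301 and 449 CPM in the Celsr3 mutants. Slc7a11, the cystine transporter and a known ATF4 target, stood at 248, 21.1 and 27.4 CPM in the controls, 284, 298 and 19.0 CPM in the Fzd3 mutants and 259, 17.5 and 19.2 CPM in the Celsr3 mutants. A group of 4 libraries from all 3 genotypes were high, the lowest of them at 248 CPM and the highest of the others at 27.4 CPM, a gap of 9.05-fold, and only Gm15599, chosen after its values were seen, divided the libraries in the same way by at least 2-fold. Slc7a11 had a log2 fold change in Fzd3 mutants of 1.16 with an SE of 1.28 (adjusted p = 0.533). Celsr3 mutant 4 was apart in Col3a1, a collagen of the meninges, which stood at 5.74, 4.63 and 3.56 CPM in the controls, 4.78, 2.61 and 2.96 CPM in the Fzd3 mutants and 6.86, 4.95 and 87.6 CPM in the Celsr3 mutants. The 5 listed of 6 marker genes of meninges summed to 12.2, 16.2 and 10.5 CPM in the controls, 21.0, 19.5 and 14.7 CPM in the Fzd3 mutants and 15.2, 15.3 and 175 CPM in the Celsr3 mutants, with Col3a1 the most abundant per kb of exon in controls.

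**Figure D1:**
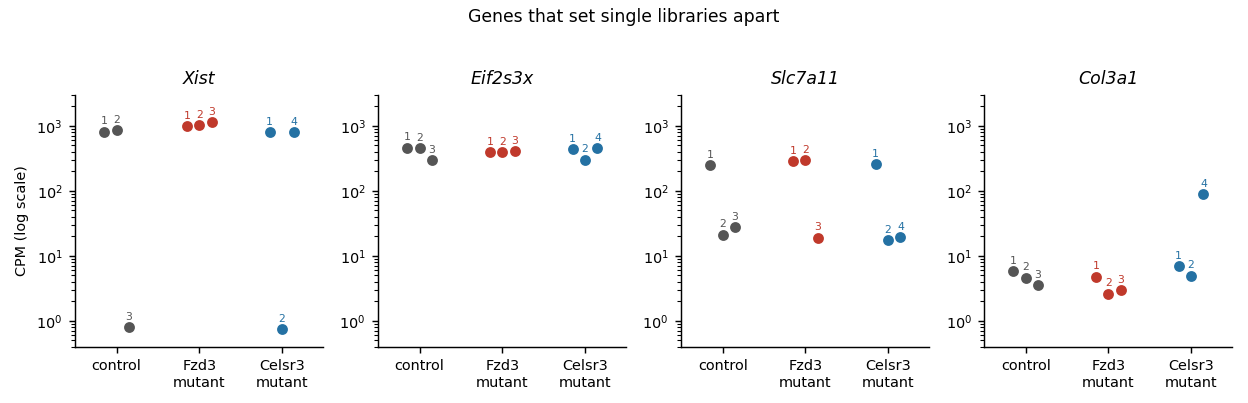
CPM on a log axis of Xist, Eif2s3x, Slc7a11 and Col3a1 in each of the 9 libraries, grouped by genotype, each point 1 library with its number. Xist was below 1 CPM in control 3 and Celsr3 mutant 2, Slc7a11 was at or above 248 CPM in 4 libraries of all 3 genotypes, and Col3a1 was at 87.6 CPM in Celsr3 mutant 4.

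The 9 listed genes spanned 120-fold in the controls when counted per length, as CPM per kb of annotated exon (mean over 3 libraries, positions and lengths from the GENCODE annotation of GRCm38). Hspa5, the chaperone BiP of the ER lumen, was highest at 60.7 CPM per kb (range 58.9 to 62.0, chr2:34771970-34777547, plus strand). Atf4 followed at 31.5 CPM per kb (range 31.4 to 31.8, chr15:80255184-80257541, plus strand) and Psat1 at 28.5 CPM per kb (range 27.0 to 29.8, chr19:15904678-15947337, minus strand). The ER and amino acid genes in the middle were Xbp1 at 17.1 CPM per kb (range 16.1 to 18.8, chr11:5520659-5525893, plus strand) and Asns at 11.5 CPM per kb (range 9.87 to 12.8, chr6:7675169-7693254, minus strand). Herpud1 at 8.91 CPM per kb (range 8.35 to 9.34, chr8:94386438-94395377, plus strand) and Dnajb9 at 8.29 CPM per kb (range 7.87 to 9.002, chr12:44205559-44210326, minus strand) overlapped in their control libraries, and all other neighbours in this order were apart. Ddit3 stood at 6.42 CPM per kb (range 6.01 to 7.16, chr10:127290774-127296288, plus strand), close to the median of 5.99 over the 14416 genes with a length. Chac1 was lowest at 0.506 CPM per kb (range 0.421 to 0.613, chr2:119351229-119354381, plus strand). Hspa5 had the highest CPM of the 9 genes, whose sum stood at 597, 583 and 600.0 CPM in the controls, 578, 586 and 592 CPM in the Fzd3 mutants and 559, 579 and 653 CPM in the Celsr3 mutants. Celsr3 mutant 4 had the highest sum, and the genotypes overlapped.

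Promoters of the listed genes that hold a known stress element are printed, so that the arms can be compared by sequence. The 250 bases before each RefSeq start (promoter table of GRCm38) were searched on both strands for 4 elements: CARE, bound by ATF4, as TGATGNAA; ERSE, bound by ATF6 and XBP1, as CCAAT and CCACG separated by 9 bases of any kind; ERSE-II, as ATTGG and CCACG separated by 1 base; and UPRE, bound by XBP1, as TGACGTGG. Promoters were found for all 9 listed genes, 10 in number because Psat1 has a pair. CARE was in the promoters of Chac1, Asns and Herpud1, 3 of 10 against 1134 of all 32851 promoters (3.45%). ERSE was in that of Hspa5, as in 37 of all promoters (0.113%), and ERSE-II in that of Herpud1, as in 10 (0.0304%). UPRE was in 0 of the 10 and in 185 of all (0.563%). Those of Atf4, Ddit3, Psat1, Xbp1 and Dnajb9 held none of the 4 within this window. The stretches below are written 5′ to 3′ on the strand of the gene, with capitals for the element. They are chr2:34772019-34772048 on the plus strand for Hspa5, chr2:119350992-119351228 on the plus strand for Chac1, chr6:7693214-7693243 on the minus strand for Asns and chr8:94386179-94386428 on the plus strand for Herpud1, where the CARE comes first and the ERSE-II after it. The elements of Hspa5 and Asns lie within annotated exons, and the CARE of Chac1 and of Herpud1 reads on the opposite strand.
Hspa5: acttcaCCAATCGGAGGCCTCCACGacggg
Chac1: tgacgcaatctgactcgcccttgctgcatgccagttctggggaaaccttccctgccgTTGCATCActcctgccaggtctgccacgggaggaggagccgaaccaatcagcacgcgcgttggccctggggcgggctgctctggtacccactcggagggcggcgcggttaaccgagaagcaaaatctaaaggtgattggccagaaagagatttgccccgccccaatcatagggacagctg
Asns: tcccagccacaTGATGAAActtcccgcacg
Herpud1: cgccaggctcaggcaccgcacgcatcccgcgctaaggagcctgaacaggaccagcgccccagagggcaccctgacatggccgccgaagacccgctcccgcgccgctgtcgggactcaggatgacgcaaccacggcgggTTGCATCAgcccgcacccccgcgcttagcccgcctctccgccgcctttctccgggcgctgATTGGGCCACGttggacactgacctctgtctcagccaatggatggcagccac
Other lists of the same pathways held the elements too. Matched by symbol, promoters were found for 20 of 25 other listed ATF4 targets, 12 of 20 tRNA synthetases, 17 of 20 other ER chaperones and 15 of 18 listed genes of ER-associated degradation. A gene held there under another symbol was missed, so the counts that follow cover the matched genes only. CARE was in 3 of 27 promoters of the ATF4 targets (11.1%), 3 of 12 of the synthetases, 1 of 22 of the chaperones and 1 of 16 of the degradation genes. ERSE was in 6 of the 22 chaperone promoters (27.3%) and 1 of the 16 degradation promoters, UPRE in 2 of the 22 and 2 of the 16, and neither was in those of the targets and synthetases. ERSE-II was in 0 promoters of these 4 lists. A match is a description of the letters and not a measure of binding.

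In Fzd3 mutants the serine synthesis gene Psat1 and the transcription factor gene Atf4 were lower than in controls and the ER cochaperone gene Dnajb9 was higher. Psat1 kept its call under each of the 21 alternatives, whereas those of Atf4 and Dnajb9 lay near the threshold. Counted together, 3 of the 9 genes passed the test in Fzd3 mutants against control (33.3%), beside 4366 of all 14670 genes (29.8%), so their share was near the background. At an unadjusted p under 0.05 there were 5 of the 9 and 6067 of all genes. The libraries of 5 of the 9 did not overlap (Atf4 and Psat1 below the controls, Hspa5, Xbp1 and Dnajb9 above), beside 43.8% of all genes. The median log2 fold change of the 9 was 0.10, beside -0.000559 over all genes. In Celsr3 mutants limma called 0 of the 9, and 0 at an unadjusted p under 0.05, beside 45 of all genes (0.307%) and 800 unadjusted. The libraries of 2 of the 9 did not overlap (Atf4 below, Chac1 above), beside 10.4% of all genes, and the median was 0.04 beside -0.00222. Both comparisons share the 3 controls. Fzd3 and Celsr3 mutants compared with each other gave 2 of the 9 (22.2%; Psat1 lower and Asns higher in Fzd3 mutants), with 4 unadjusted, beside 4346 of all genes (29.6%) and 6006 unadjusted. With a replicate block these were 1 of the 9 (Psat1) and 2101 of all genes. The median there was 0.05 beside -0.00471. An exact permutation test of a single gene with 3 libraries against 3 cannot go below 0.1, so calls rest on limma, which pools the spread over genes. With a replicate left out, 1 to 4 of the 9 were called in Fzd3 mutants. There was 1 without control 2 (beside 3118 of all genes) and 1 without Fzd3 mutant 1 (beside 2958). There were 4 without Celsr3 mutant 4 (beside 4279), where Xbp1 joined. Without control 3, and with only the libraries high in Xist, the 3 called were Psat1, Asns and Xbp1. They stood in place of Psat1, Atf4 and Dnajb9, beside 4202 and 3904 of all genes. Between the mutants 1 of the 9 (Psat1) was called without Fzd3 mutant 1, without Celsr3 mutant 2 and with only the libraries high in Xist. Beside it 2971, 3200 and 3336 of all genes were called, in that order.

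**Figure D2:**
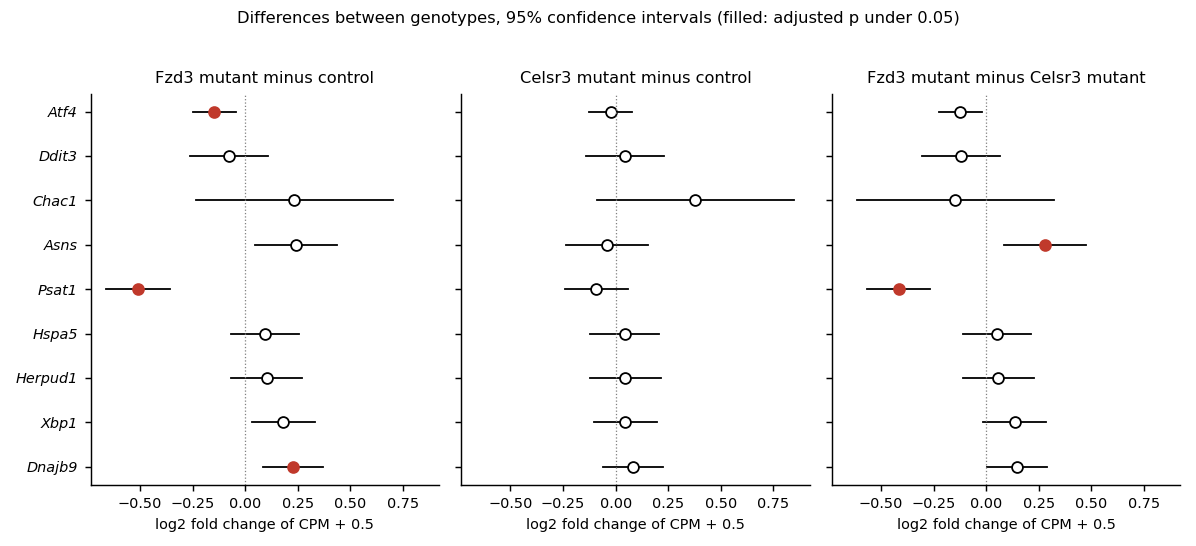
Log2 fold change with its 95% confidence interval for the 9 listed genes in Fzd3 mutants against control, Celsr3 mutants against control and Fzd3 against Celsr3 mutants, from 1 limma fit of 9 libraries, filled where the adjusted p was under 0.05. Psat1 is filled in the first panel at -0.51 and in the last at -0.42, and none is filled for Celsr3 mutants.

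Atf4, the transcription factor at the centre of the integrated stress response, stood at 74.0, 74.9 and 74.1 CPM in the controls, 63.3, 70.5 and 67.8 CPM in the Fzd3 mutants and 73.4, 73.7 and 72.3 CPM in the Celsr3 mutants. All 3 Fzd3 mutants lay below all 6 other libraries, and the Celsr3 mutants lay just below the controls. In Fzd3 mutants Atf4 fell by 0.15 on the log2 scale (SE 0.0462, adjusted p = 0.0343), a mean change of -9.62%. In Celsr3 mutants its log2 fold change was -0.02 (SE 0.0462, adjusted p = 1.00), and that of Fzd3 against Celsr3 mutants was -0.12 (SE 0.0462, adjusted p = 0.0661). The call in Fzd3 mutants was close to the threshold: it was made in 9 of 21 alternatives and was lost without Celsr3 mutant 2 (-0.15, adjusted p = 0.0513), Fzd3 mutant 1 (-0.10, adjusted p = 0.133), Fzd3 mutant 3 (-0.15, adjusted p = 0.0521), control 1 (-0.15, adjusted p = 0.0724), control 2 (-0.14, adjusted p = 0.0900) or control 3 (-0.15, adjusted p = 0.0604). It was also lost with a replicate block, with only the compared genotypes in the fit and with no variance trend (each -0.15). The same held with every library scaled to the same total (-0.13) and under both settings for Xist. The value was -0.14 with Xist as a covariate and -0.15 in the fit of only the libraries above 1 CPM, so its size changed little. The direct comparison of the mutants passed only without Fzd3 mutant 2 (-0.16, adjusted p = 0.0433) among the alternatives.

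Ddit3 encodes CHOP, a transcription factor induced by ATF4 and linked to cell death under lasting stress. It stood at 10.3, 10.4 and 12.3 CPM in the controls, 10.2, 10.4 and 10.4 CPM in the Fzd3 mutants and 11.3, 11.5 and 11.1 CPM in the Celsr3 mutants. Control 3 was the highest library, the other 2 controls were level with the Fzd3 mutants, and the Celsr3 mutants were above the Fzd3 mutants without overlap. Its log2 fold change was -0.08 (SE 0.0838, adjusted p = 0.528) in Fzd3 mutants, 0.04 (SE 0.0838, adjusted p = 1.00) in Celsr3 mutants and -0.12 (SE 0.0838, adjusted p = 0.310) between them. Chac1, an enzyme that degrades glutathione and a target of ATF4, was near the lower end of the table, at 0.790, 0.690 and 1.00 CPM in the controls, 1.30, 1.40 and 0.592 CPM in the Fzd3 mutants and 1.19, 1.31 and 1.17 CPM in the Celsr3 mutants. Fzd3 mutant 3 lay below the controls and the other 2 Fzd3 mutants above them, whereas all 3 Celsr3 mutants lay above the controls. The log2 fold changes were 0.23 (SE 0.213, adjusted p = 0.446) in Fzd3 mutants and 0.38 (SE 0.213, adjusted p = 0.981) in Celsr3 mutants, and -0.15 (SE 0.213, adjusted p = 0.648) between them, on a scale that understates changes of genes with low values. With a library left out, the value in Fzd3 mutants ran from 0.0856 without Fzd3 mutant 2 to 0.49 without Fzd3 mutant 3. Neither gene passed the test in any of the 3 comparisons.

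Asns makes asparagine and is a classical target of ATF4. It stood at 32.0, 27.0 and 35.0 CPM in the controls, 37.9, 38.9 and 34.2 CPM in the Fzd3 mutants and 31.6, 29.4 and 29.9 CPM in the Celsr3 mutants. The controls were spread from 27.0 to 35.0 CPM and control 3 overlapped the Fzd3 mutants, whereas the Celsr3 mutants were narrow and lay below all 3 Fzd3 mutants. The log2 fold change was 0.24 (SE 0.0885, adjusted p = 0.0609) in Fzd3 mutants and -0.04 (SE 0.0885, adjusted p = 1.00) in Celsr3 mutants, and neither passed the test. In the direct comparison Asns was higher in Fzd3 than in Celsr3 mutants, by 0.28 (SE 0.0885, adjusted p = 0.0340). That call was made in 13 of 21 alternatives and was lost without Celsr3 mutant 2 (0.26, adjusted p = 0.0997), Celsr3 mutant 4 (0.27, adjusted p = 0.0864), Fzd3 mutant 1 (0.26, adjusted p = 0.103) or Fzd3 mutant 2 (0.24, adjusted p = 0.116). It was also lost with a replicate block (0.26), with no variance trend and with the ordinary test per gene (both 0.28), and with only the libraries high in Xist (0.26). Against control, Asns passed in Fzd3 mutants without Fzd3 mutant 3 (0.30, adjusted p = 0.0391) or control 3 (0.33, adjusted p = 0.0168), and also with only the libraries high in Xist (0.33). Without control 2 it was 0.14 (adjusted p = 0.213).

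Psat1, the aminotransferase in the middle of serine synthesis, stood at 122, 127 and 115 CPM in the controls, 83.0, 87.9 and 84.2 CPM in the Fzd3 mutants and 103, 112 and 127 CPM in the Celsr3 mutants. All 3 Fzd3 mutants were below all 6 other libraries, and the Celsr3 mutants overlapped the controls. In Fzd3 mutants Psat1 fell by 0.51 on the log2 scale (SE 0.0687, adjusted p = 0.000389), a mean change of -29.8%, and the call was made under every one of 21 alternatives, with changes from -0.54 to -0.47. In Celsr3 mutants its log2 fold change was -0.09 (SE 0.0687, adjusted p = 1.00). Psat1 was also lower in Fzd3 than in Celsr3 mutants, with -0.42 (SE 0.0687, adjusted p = 0.00141), under every one of 21 alternatives.

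The other enzymes of serine synthesis stood beside it. Phgdh, the first enzyme of the pathway and one of the other ATF4 targets, stood at 76.4, 76.4 and 75.0 CPM in the controls, 55.0, 53.9 and 54.7 CPM in the Fzd3 mutants and 70.9, 70.2 and 82.2 CPM in the Celsr3 mutants. All 3 Fzd3 mutants lay below all others, as for Psat1, and Phgdh fell by 0.47 on the log2 scale (SE 0.0581, adjusted p = 0.000209), under every one of 21 alternatives. Psph, the last enzyme and named after its values were seen, stood at 16.4, 21.3 and 15.9 CPM in the controls, 13.7, 14.4 and 15.2 CPM in the Fzd3 mutants and 18.8, 18.7 and 19.5 CPM in the Celsr3 mutants. Its Fzd3 mutants were below all others, with -0.29 (SE 0.101, adjusted p = 0.0531) against control and -0.38 (SE 0.101, adjusted p = 0.0151) against Celsr3 mutants. Psph passed against control without control 3 (adjusted p = 0.0266) and no longer passed against Celsr3 mutants without Celsr3 mutant 4 (adjusted p = 0.0501) or Fzd3 mutant 1 (adjusted p = 0.0593) or with a replicate block. Shmt2, which turns serine into glycine in mitochondria and was also named after its values were seen, stood at 47.9, 49.8 and 44.9 CPM in the controls, 39.6, 38.9 and 45.4 CPM in the Fzd3 mutants and 46.3, 46.5 and 49.1 CPM in the Celsr3 mutants. Fzd3 mutant 3 overlapped the controls, and Shmt2 fell by 0.20 on the log2 scale (SE 0.0662, adjusted p = 0.0382). Shmt2 lost this call without Celsr3 mutant 2 (adjusted p = 0.0531), Fzd3 mutant 1 (adjusted p = 0.128), Fzd3 mutant 2 (adjusted p = 0.137), control 1 (adjusted p = 0.0950) or control 2 (adjusted p = 0.128), and with the block. Serine synthesis genes are known to be high in dividing progenitor cells, whose markers also fell in Fzd3 mutants. The 10 radial glia markers summed to 1451, 1511 and 1463 CPM in the controls, 1109, 1173 and 1060.1 CPM in the Fzd3 mutants and 1317, 1355 and 1442 CPM in the Celsr3 mutants, with Vim the most abundant, and 0 of the 10 were at 0 in any library. Radial glia marker sums were thus lower in all 3 Fzd3 mutants than in all other libraries, and their part in the result was not tested. In bulk RNA, fewer cells of a type and less RNA per cell cannot be told apart.

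**Figure D3:**
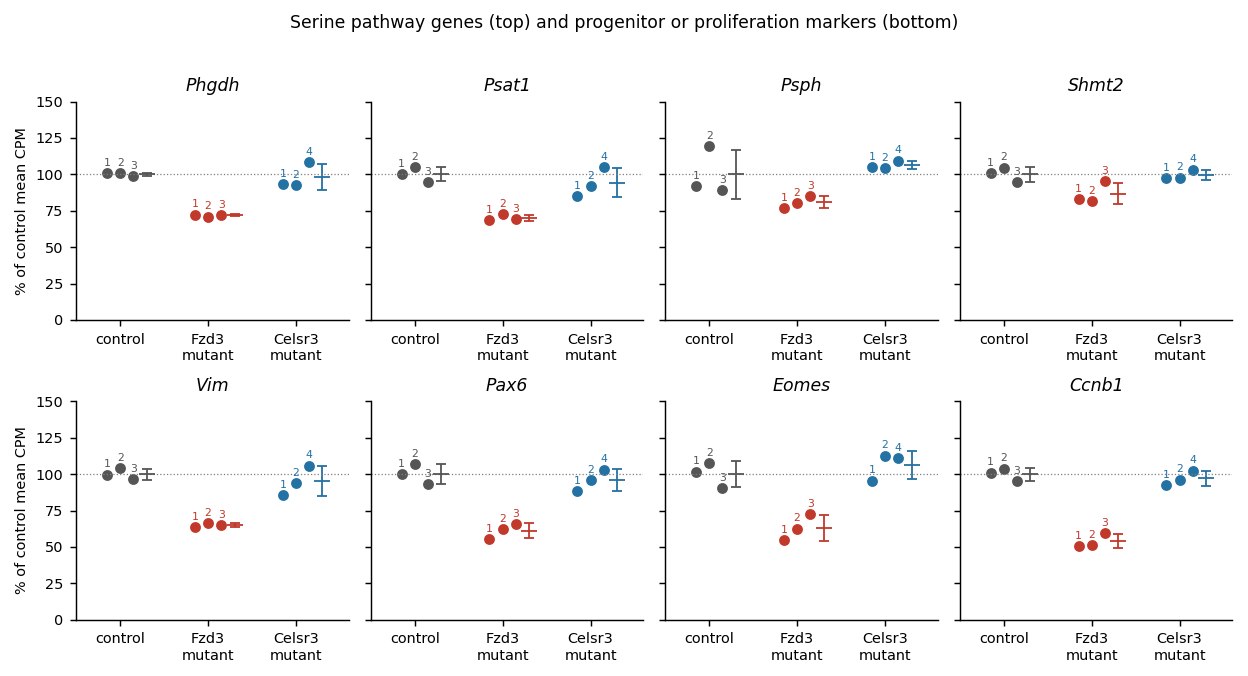
CPM as percent of the control mean for the serine genes Phgdh, Psat1, Psph and Shmt2 (top) and the progenitor and cell cycle genes Vim, Pax6, Eomes and Ccnb1 (bottom), each point 1 library and bars the mean ± SD of 3 libraries per genotype. The 3 Fzd3 mutants lie below the controls for every gene shown except Shmt2, where Fzd3 mutant 3 at 45.4 CPM lies among them.

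On the ER side, Hspa5 binds unfolded protein in the ER lumen and holds the stress sensors inactive. It stood at 262, 249 and 259.5 CPM in the controls, 269.9, 266 and 287 CPM in the Fzd3 mutants and 239.5, 253 and 305 CPM in the Celsr3 mutants. The Fzd3 mutants lay just above the controls, and the Celsr3 mutants were spread from the lowest to the highest of the 9 libraries, Celsr3 mutant 4 being the highest. Its log2 fold change was 0.09 (SE 0.0743, adjusted p = 0.371) in Fzd3 mutants, 0.04 (SE 0.0743, adjusted p = 1.00) in Celsr3 mutants and 0.05 (SE 0.0743, adjusted p = 0.646) between them, where it passed only without Celsr3 mutant 4 (0.15, adjusted p = 0.0488). Herpud1, an ER membrane protein of the degradation machinery, stood at 19.5, 21.1 and 21.8 CPM in the controls, 24.7, 21.5 and 21.0 CPM in the Fzd3 mutants and 20.8, 21.2 and 22.4 CPM in the Celsr3 mutants. Fzd3 mutant 1 was the highest library and the genotypes otherwise overlapped, with log2 fold changes of 0.10 (SE 0.0769, adjusted p = 0.346) in Fzd3 mutants and 0.04 (SE 0.0769, adjusted p = 1.00) in Celsr3 mutants, and 0.06 (SE 0.0769, adjusted p = 0.615) between them. In Fzd3 mutants the value for Herpud1 ran from 0.0306 without Fzd3 mutant 1 to 0.15 without Fzd3 mutant 3, and that for Hspa5 from 0.0622 without Fzd3 mutant 3 to 0.11 without Fzd3 mutant 2. Herpud1 passed in none of the 3 comparisons under any alternative.

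Xbp1, the transcription factor whose RNA is spliced by IRE1, stood at 53.6, 52.2 and 61.2 CPM in the controls, 62.7, 64.3 and 62.2 CPM in the Fzd3 mutants and 56.1, 54.0 and 62.1 CPM in the Celsr3 mutants. The Fzd3 mutants lay above the controls, control 3 being the nearest at 61.2 CPM, and the Celsr3 mutants overlapped the controls. The log2 fold changes were 0.18 (SE 0.0679, adjusted p = 0.0654) in Fzd3 mutants and 0.05 (SE 0.0679, adjusted p = 1.00) in Celsr3 mutants, and 0.14 (SE 0.0679, adjusted p = 0.156) between them. Xbp1 passed in Fzd3 mutants without Celsr3 mutant 4 (0.18, adjusted p = 0.0491) or control 3 (0.25, adjusted p = 0.0134), and with only the libraries high in Xist (0.25). CPM of the whole gene do not separate spliced from unspliced Xbp1 RNA. Dnajb9, a cochaperone of Hspa5 in the ER, stood at 22.9, 20.4 and 20.1 CPM in the controls, 24.7, 24.8 and 24.9 CPM in the Fzd3 mutants and 22.3, 22.9 and 21.9 CPM in the Celsr3 mutants. The Fzd3 mutants were nearly equal and above all 6 other libraries. In Fzd3 mutants Dnajb9 rose by 0.23 on the log2 scale (SE 0.0645, adjusted p = 0.0216), a mean change of 17.3%, in 14 of 21 alternatives. The call was lost without Fzd3 mutant 1 (0.23, adjusted p = 0.0576), Fzd3 mutant 2 (0.23, adjusted p = 0.0586), control 2 (0.20, adjusted p = 0.0752) or control 3 (0.19, adjusted p = 0.0648). It was also lost under both settings for Xist (0.22 and 0.19) and with a replicate block (0.23). Its log2 fold change was 0.08 (SE 0.0645, adjusted p = 1.00) in Celsr3 mutants and 0.15 (SE 0.0645, adjusted p = 0.113) between the mutants.

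**Figure D4:**
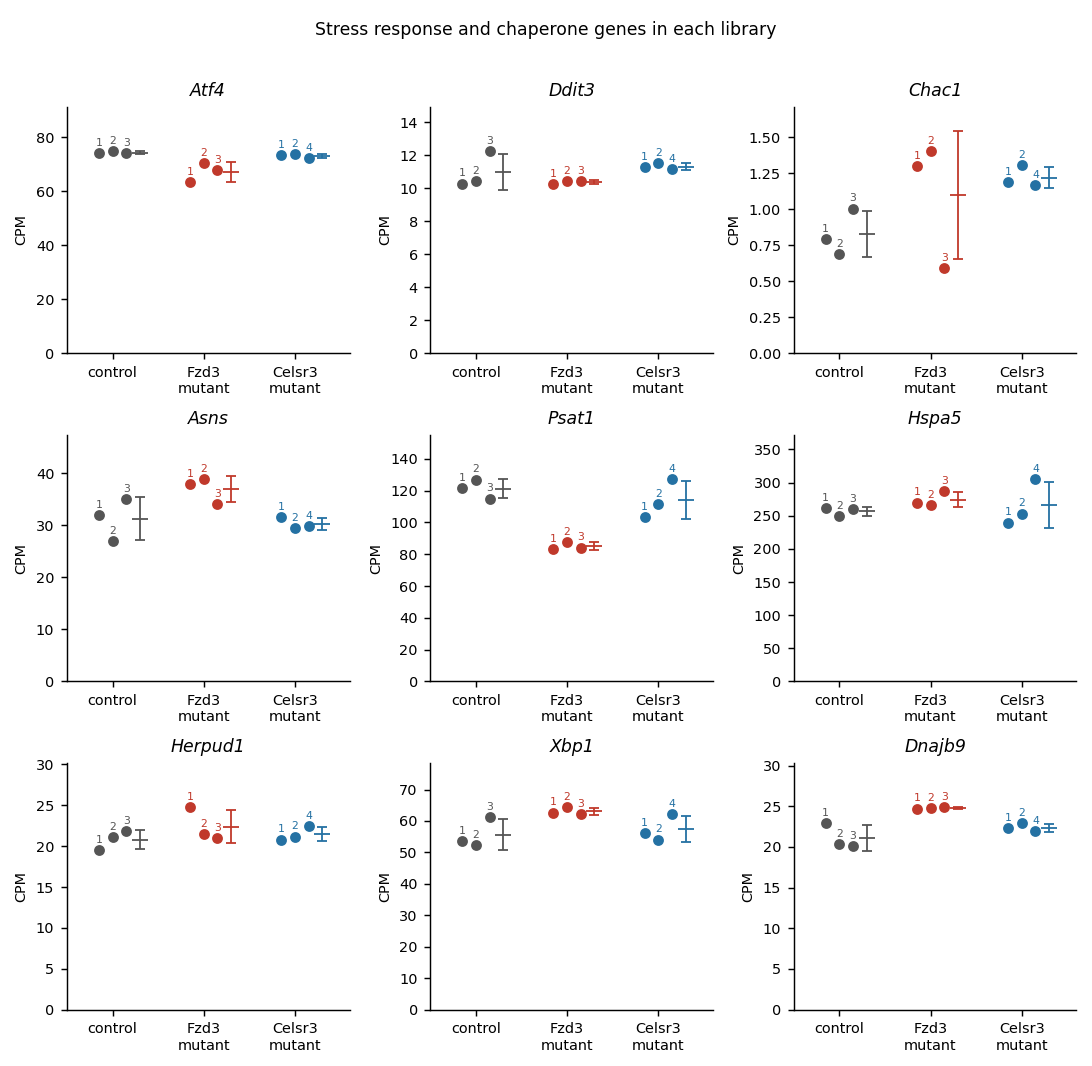
CPM of each of the 9 listed genes (a panel each, with its own axis) in control, Fzd3 mutant and Celsr3 mutant libraries, each point 1 library with its number and bars the mean ± SD of 3 libraries. Psat1 is at 83.0 to 87.9 CPM in Fzd3 mutants against 115.1 to 126.9 CPM in controls, and Dnajb9 at 24.7 to 24.9 against 20.1 to 22.9 CPM.

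Upstream of Atf4 lie the eIF2alpha kinases, the subunits of eIF2, its phosphatase and its exchange factor eIF2B. Of these 14 genes 4 fell and 0 rose in Fzd3 mutants (28.6%, beside 29.8% of all genes, with 7 unadjusted), with a median log2 fold change of -0.09. In Celsr3 mutants limma called 0 (0 unadjusted, median -0.01). Counts in Celsr3 mutants, here and in the lists below, stand beside 0.307% of all genes called. At that share 0 called in a short list says little about the list. Eif2ak2, the kinase PKR that senses double-stranded RNA, stood at 5.07, 6.04 and 4.94 CPM in the controls, 3.34, 3.56 and 3.47 CPM in the Fzd3 mutants and 4.69, 5.57 and 5.71 CPM in the Celsr3 mutants. The Fzd3 mutants lay below all others, and it fell by 0.56 on the log2 scale (SE 0.116, adjusted p = 0.00456). Eif2ak4, the kinase GCN2 that senses uncharged tRNA, stood at 50.5, 52.9 and 51.3 CPM in the controls, 44.3, 45.0 and 44.7 CPM in the Fzd3 mutants and 45.6, 51.5 and 49.5 CPM in the Celsr3 mutants. Its Fzd3 mutants were below all others, Celsr3 mutant 1 being the nearest, and Eif2ak4 fell by 0.20 on the log2 scale (SE 0.0524, adjusted p = 0.0136). Eif2ak4 lost this call without control 2 (adjusted p = 0.0513). The other 2 kinases did not pass: Eif2ak3, the ER kinase PERK, had 0.02 (adjusted p = 0.816) and Eif2ak1, which senses lack of haem, -0.04 (adjusted p = 0.567). Ppp1r15a, the stress-induced subunit GADD34 that directs the phosphatase to eIF2alpha, stood at 9.65, 8.90 and 9.16 CPM in the controls, 7.85, 7.28 and 6.87 CPM in the Fzd3 mutants and 9.32, 9.89 and 8.81 CPM in the Celsr3 mutants. The Fzd3 mutants did not overlap the other 6 libraries, and Ppp1r15a fell by 0.31 on the log2 scale (SE 0.0879, adjusted p = 0.0200). Ppp1r15a lost this call without Fzd3 mutant 2 (adjusted p = 0.0567), Fzd3 mutant 3 (adjusted p = 0.0566) or control 1 (adjusted p = 0.0697). Its constitutive counterpart Ppp1r15b had -0.10 (adjusted p = 0.198). Eif2b3, a subunit of eIF2B, fell by 0.20 on the log2 scale (SE 0.0639, adjusted p = 0.0374). Eif2b3 lost this call without Celsr3 mutant 2 (adjusted p = 0.0521), Fzd3 mutant 1 (adjusted p = 0.117), Fzd3 mutant 3 (adjusted p = 0.0921), control 1 (adjusted p = 0.121) or control 3 (adjusted p = 0.0920). Eif2s3x was the highest of the list per length in controls, at 106 CPM per kb, with 0.02 (adjusted p = 0.945), and its values divide with Xist as given above. Between the mutants, Eif2ak2 was lower in Fzd3 mutants, with -0.55 (adjusted p = 0.005001), and Ppp1r15a with -0.33 (adjusted p = 0.0162), the latter not without Celsr3 mutant 2 (adjusted p = 0.0674) or with the block. Against control, 3 genes of the list fell with the block, Eif2b3 losing its call, beside 3629 of all 14670 genes called. The direct value for Eif2ak4 was -0.13 (adjusted p = 0.0922), which passed without Celsr3 mutant 1 (adjusted p = 0.0293).

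Downstream, 25 of 32 other known targets of ATF4 or CHOP were listed (not Atf3, Cebpb, Nupr1, Gdf15, Fgf21, Slc7a5 and Slc7a3). In Fzd3 mutants 6 fell and 3 rose (36.0%, beside 29.8% of all genes; 12 unadjusted), with a median of 0.03. Over all genes 2167 fell and 2199 rose. Limma called 0 in Celsr3 mutants (2 unadjusted, median 0.02). Besides Phgdh, Slc38a2, a transporter of neutral amino acids and the highest of the list per length (41.3 CPM per kb in controls), stood at 370.3, 372 and 354 CPM in the controls, 313, 311 and 328 CPM in the Fzd3 mutants and 365, 373 and 356 CPM in the Celsr3 mutants. The Fzd3 mutants lay below all others, and Slc38a2 fell by 0.20 on the log2 scale (SE 0.0388, adjusted p = 0.00288), under every one of 21 alternatives. Aldh1l2, a mitochondrial enzyme of folate metabolism, stood at 65.8, 73.6 and 73.0 CPM in the controls, 87.2, 84.6 and 86.3 CPM in the Fzd3 mutants and 74.2, 69.1 and 69.7 CPM in the Celsr3 mutants. Here the Fzd3 mutants lay above all others, and Aldh1l2 rose by 0.28 on the log2 scale (SE 0.0522, adjusted p = 0.00248), under every one of 21 alternatives. Vldlr, a receptor for Reelin, stood at 90.8, 89.3 and 91.6 CPM in the controls, 107, 106 and 115 CPM in the Fzd3 mutants and 92.9, 95.9 and 84.5 CPM in the Celsr3 mutants, again with the Fzd3 mutants above all others, and rose by 0.26 on the log2 scale (SE 0.0534, adjusted p = 0.00384). Pycr1, an enzyme of proline synthesis named after its values were seen, rose by 0.43 on the log2 scale (SE 0.115, adjusted p = 0.0164). Pycr1 lost this call without Fzd3 mutant 1 (adjusted p = 0.0615), control 1 (adjusted p = 0.0669) or control 2 (adjusted p = 0.0601). Further genes of the list that fell, also named afterwards, were the transcription factor genes Atf5 (-0.42, adjusted p = 0.00992) and Cebpg (-0.33, adjusted p = 0.0236), and Aldh18a1 of proline synthesis (-0.19, adjusted p = 0.00846). Cebpg lost its call without Fzd3 mutant 1 (adjusted p = 0.0968), Fzd3 mutant 2 (adjusted p = 0.0798), control 1 (adjusted p = 0.0911) or control 2 (adjusted p = 0.0783). With a replicate block 4 genes of the list fell and 3 rose, Cebpg and Shmt2 losing their calls, beside 3629 of all 14670 genes called.

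The cytosolic aminoacyl-tRNA synthetases, which charge tRNA and are raised by ATF4 when amino acids are short, were all listed. Of 20, 5 fell and 1 rose in Fzd3 mutants (30%, beside 29.8% of all genes; 9 unadjusted), with a median of -0.06, and limma called 0 in Celsr3 mutants (1 unadjusted, median -0.03). Qars, for glutamine, stood at 123, 121 and 131 CPM in the controls, 99.2, 96.1 and 99.4 CPM in the Fzd3 mutants and 119, 113 and 123 CPM in the Celsr3 mutants. None of the Fzd3 mutants overlapped the other libraries, and Qars fell by 0.34 on the log2 scale (SE 0.0456, adjusted p = 0.000338), under every one of 21 alternatives. Tars, for threonine, fell by 0.23 on the log2 scale (SE 0.0528, adjusted p = 0.00736), under every one of 21 alternatives. Rars, for arginine, fell by 0.18 on the log2 scale (SE 0.0461, adjusted p = 0.0122). Rars lost this call without Fzd3 mutant 1 (adjusted p = 0.0514). Aars, for alanine, fell by 0.18 on the log2 scale (SE 0.0475, adjusted p = 0.0165). Aars lost this call without control 2 (adjusted p = 0.0531) or control 3 (adjusted p = 0.0518). Kars, for lysine, had -0.13 (adjusted p = 0.0226) and Nars, for asparagine, the one that rose, 0.18 (adjusted p = 0.0255), both named after their values were seen. Kars lost its call without Fzd3 mutant 1 (adjusted p = 0.0530), Fzd3 mutant 2 (adjusted p = 0.0631), control 1 (adjusted p = 0.0635) or control 2 (adjusted p = 0.0733), and Nars without Fzd3 mutant 1 (adjusted p = 0.0558), Fzd3 mutant 2 (adjusted p = 0.102) or control 2 (adjusted p = 0.0941). A replicate block left 3 lower and 0 higher, since Aars, Kars and Nars no longer passed, beside 3629 of all 14670 genes called with the block. Gars, the highest of the list per length (75.2 CPM per kb in controls), did not pass, with 0.04 (adjusted p = 0.506).

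The other ER chaperones and folding enzymes, which ATF6 and XBP1 activate, showed 1 of 20 lower and 2 higher in Fzd3 mutants (15%, beside 29.8% of all genes; 6 unadjusted), with a median of 0.06, and limma called 0 in Celsr3 mutants (1 unadjusted, median -0.00424). Their sum stood at 2745, 2706 and 2856 CPM in the controls, 2834, 2925 and 2906 CPM in the Fzd3 mutants and 2635, 2634 and 2915 CPM in the Celsr3 mutants, with Hsp90b1 the most abundant, and the genotypes overlapped. Canx, the membrane chaperone calnexin, stood at 343, 335 and 358 CPM in the controls, 368, 394 and 394 CPM in the Fzd3 mutants and 332, 314 and 338 CPM in the Celsr3 mutants. Its Fzd3 mutants lay above all others, and Canx rose by 0.16 on the log2 scale (SE 0.0448, adjusted p = 0.0211). Canx lost this call without Fzd3 mutant 2 (adjusted p = 0.0771), Fzd3 mutant 3 (adjusted p = 0.0574), control 1 (adjusted p = 0.0604) or control 2 (adjusted p = 0.0748). Between the mutants Canx was higher in Fzd3 mutants by 0.23 (SE 0.0448, adjusted p = 0.00315), under every one of 21 alternatives. Pdia3, a disulfide isomerase, stood at 293, 274 and 287 CPM in the controls, 318, 320.5 and 319.5 CPM in the Fzd3 mutants and 276, 282 and 323 CPM in the Celsr3 mutants, with Celsr3 mutant 4 the highest library of all. Pdia3 rose by 0.17 on the log2 scale (SE 0.0553, adjusted p = 0.0410). Pdia3 lost this call without Fzd3 mutant 1 (adjusted p = 0.0942), Fzd3 mutant 2 (adjusted p = 0.101), Fzd3 mutant 3 (adjusted p = 0.0752), control 1 (adjusted p = 0.0575), control 2 (adjusted p = 0.133) or control 3 (adjusted p = 0.0655). Dnajc10, a reductase that works with Hspa5, went the other way, at 103, 101 and 106 CPM in the controls, 91.0, 90.2 and 94.6 CPM in the Fzd3 mutants and 93.5, 98.1 and 95.4 CPM in the Celsr3 mutants. Fzd3 mutants 1 and 2 lay below all other libraries and Fzd3 mutant 3 below all controls, and Dnajc10 fell by 0.17 on the log2 scale (SE 0.0404, adjusted p = 0.0107), under every one of 21 alternatives. Calr, the soluble chaperone calreticulin and the highest of the list per length (135 CPM per kb in controls), had 0.13 (adjusted p = 0.127) against control, which passed without Celsr3 mutant 4 (adjusted p = 0.0474). Against Celsr3 mutants Calr had 0.20 (adjusted p = 0.0349), lost without Celsr3 mutant 1 (adjusted p = 0.1103), Celsr3 mutant 2 (adjusted p = 0.131), Fzd3 mutant 1 (adjusted p = 0.0885), Fzd3 mutant 2 (adjusted p = 0.0940) or Fzd3 mutant 3 (adjusted p = 0.0575).

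Of the genes of ER-associated degradation, 18 of 20 were listed (not Derl3 and Ube2g2), and 2 fell and 2 rose in Fzd3 mutants (22.2%, beside 29.8% of all genes; 5 unadjusted, median 0.03), with 0 called by limma in Celsr3 mutants (1 unadjusted, median 0.02). Nploc4, a cofactor that brings the ATPase VCP to its substrates, stood at 93.0, 96.6 and 95.7 CPM in the controls, 81.7, 79.7 and 82.4 CPM in the Fzd3 mutants and 89.5, 90.5 and 90.4 CPM in the Celsr3 mutants. Its Fzd3 mutants lay below all others, and Nploc4 fell by 0.23 on the log2 scale (SE 0.0377, adjusted p = 0.00135), under every one of 21 alternatives. Vcp itself, the highest of the list per length (95.2 CPM per kb in controls), fell by 0.11 on the log2 scale (SE 0.0347, adjusted p = 0.0333). Edem2, which trims mannose from misfolded glycoproteins, rose by 0.23 on the log2 scale (SE 0.0700, adjusted p = 0.0296), and Sel1l, the partner of the ligase HRD1, rose by 0.12 on the log2 scale (SE 0.0387, adjusted p = 0.0432). Leaving out single libraries ended these calls. Vcp lost its call without Fzd3 mutant 1 (adjusted p = 0.121), Fzd3 mutant 2 (adjusted p = 0.0502), Fzd3 mutant 3 (adjusted p = 0.0550), control 1 (adjusted p = 0.0767), control 2 (adjusted p = 0.0692) or control 3 (adjusted p = 0.0648). Edem2 lost it without Fzd3 mutant 1 (adjusted p = 0.0580), Fzd3 mutant 2 (adjusted p = 0.119), control 1 (adjusted p = 0.0830) or control 2 (adjusted p = 0.102). Sel1l lost it without Celsr3 mutant 2 (adjusted p = 0.0650), Celsr3 mutant 4 (adjusted p = 0.0530), Fzd3 mutant 1 (adjusted p = 0.117), Fzd3 mutant 3 (adjusted p = 0.118), control 1 (adjusted p = 0.0689), control 2 (adjusted p = 0.0911) or control 3 (adjusted p = 0.1002). None of these 3 passed with a replicate block, where 1 gene of the list fell and 0 rose, beside 3629 of all 14670 genes called.

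Among 9 ER stress sensors and membrane-bound transcription factors, 1 fell and 1 rose in Fzd3 mutants (22.2%, beside 29.8% of all genes; 4 unadjusted, median 0.02), and limma called 0 in Celsr3 mutants (0 unadjusted, median 0.01). Ern1, the sensor IRE1 that splices Xbp1, stood at 21.1, 21.8 and 21.4 CPM in the controls, 21.6, 18.9 and 22.9 CPM in the Fzd3 mutants and 21.9, 22.3 and 22.4 CPM in the Celsr3 mutants. Its genotypes overlapped, with -0.03 (adjusted p = 0.825). Atf6 stood at 33.9, 34.9 and 36.1 CPM in the controls, 31.3, 27.9 and 32.0 CPM in the Fzd3 mutants and 33.1, 35.2 and 34.4 CPM in the Celsr3 mutants. The Fzd3 mutants lay below all other libraries, and Atf6 fell by 0.20 on the log2 scale (SE 0.0624, adjusted p = 0.0305). Atf6 lost this call without Fzd3 mutant 1 (adjusted p = 0.0506), Fzd3 mutant 2 (adjusted p = 0.117), control 2 (adjusted p = 0.0708) or control 3 (adjusted p = 0.0814), and with a replicate block. Mbtps2, the protease that releases ATF6 from the membrane, stood at 66.8, 66.0 and 64.8 CPM in the controls, 77.9, 72.6 and 79.4 CPM in the Fzd3 mutants and 66.6, 66.1 and 62.1 CPM in the Celsr3 mutants. Here the Fzd3 mutants lay above all other libraries, and Mbtps2 rose by 0.22 on the log2 scale (SE 0.0485, adjusted p = 0.00692), under every one of 21 alternatives. Atf6b, the highest of the list per length (29.0 CPM per kb in controls), had -0.15 (adjusted p = 0.0557) and passed without Fzd3 mutant 3 (adjusted p = 0.0391) or control 1 (adjusted p = 0.0232).

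Chaperones outside the ER were compared for contrast. Of 17 cytosolic heat shock genes 16 were listed (not Hspb1), and 3 fell and 2 rose in Fzd3 mutants (31.2%, beside 29.8% of all genes; 9 unadjusted, median -0.10), with 0 called by limma in Celsr3 mutants (1 unadjusted, median -0.01). Hsp90ab1, the constitutive form of HSP90 and the highest of the list per length (747 CPM per kb in controls), stood at 2209.8, 2259.7 and 2254 CPM in the controls, 1914, 1989 and 2011 CPM in the Fzd3 mutants and 2208, 2114 and 2193 CPM in the Celsr3 mutants. All 3 Fzd3 mutants lay below all others, and Hsp90ab1 fell by 0.19 on the log2 scale (SE 0.0403, adjusted p = 0.00579). Stip1, which links HSP70 to HSP90, fell by 0.23 on the log2 scale (SE 0.0411, adjusted p = 0.00186), and both calls were made under every one of 21 alternatives. Dnajb1, an HSP40, fell by 0.25 on the log2 scale (SE 0.0684, adjusted p = 0.0172). Dnajb1 lost this call without Fzd3 mutant 1 (adjusted p = 0.0544). The 2 genes that rose were Cryab, a small heat shock protein at 1.46 CPM in controls, with 0.73 (SE 0.211, adjusted p = 0.0234), and Dnajb4, another HSP40 named after its values were seen, with 0.28 (SE 0.0808, adjusted p = 0.0236). Cryab lost its call without Fzd3 mutant 2 (adjusted p = 0.0967), control 1 (adjusted p = 0.0864) or control 2 (adjusted p = 0.0546), and Dnajb4 without Fzd3 mutant 2 (adjusted p = 0.0807), Fzd3 mutant 3 (adjusted p = 0.0536) or control 2 (adjusted p = 0.0917). Of 9 mitochondrial chaperones and proteases 8 were listed (not Dnaja3), of which limma called 0 in Fzd3 mutants (1 unadjusted, median -0.08) and 0 in Celsr3 mutants (0 unadjusted, median -0.000494), and Hspd1 was the highest per length (114 CPM per kb in controls).

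Immediate early genes respond within minutes to stimulation and to handling of tissue. Of 10, 7 were listed (not Fos, Fosb and Npas4), and 3 fell and 1 rose in Fzd3 mutants (57.1%, beside 29.8% of all genes; 5 unadjusted, median -0.02), with 0 called by limma in Celsr3 mutants (3 unadjusted, median 0.12). Btg2, which is also a marker of neurogenic progenitors, fell by 0.76 on the log2 scale (SE 0.0847, adjusted p = 0.000130) and Ier2 fell by 0.55 on the log2 scale (SE 0.105, adjusted p = 0.00297), both under every one of 21 alternatives. Egr1 stood at 1.54, 1.41 and 1.505 CPM in the controls, 4.76, 4.95 and 2.596 CPM in the Fzd3 mutants and 1.85, 1.67 and 1.79 CPM in the Celsr3 mutants. The Fzd3 mutants lay above all others, Fzd3 mutant 3 being the nearest, and Egr1 rose by 1.17 on the log2 scale (SE 0.196, adjusted p = 0.00136). Arc fell by 0.47 on the log2 scale (SE 0.153, adjusted p = 0.0388). Arc lost this call without Celsr3 mutant 2 (adjusted p = 0.0510), Fzd3 mutant 1 (adjusted p = 0.0870), Fzd3 mutant 2 (adjusted p = 0.0861), Fzd3 mutant 3 (adjusted p = 0.0799), control 1 (adjusted p = 0.0568), control 2 (adjusted p = 0.140) or control 3 (adjusted p = 0.0552), and with a replicate block. Jun, the highest of the list per length, had 0.25 (adjusted p = 0.0633) in Fzd3 mutants, which passed without Fzd3 mutant 3 (adjusted p = 0.0104) and with the block, and 0.51 (adjusted p = 0.0545) in Celsr3 mutants, which passed without Celsr3 mutant 1 (adjusted p = 0.0423) or Fzd3 mutant 3 (adjusted p = 0.0125). Their part in the results above was not tested. The 7 immediate early genes summed to 104, 111 and 97.6 CPM in the controls, 106, 102 and 91.6 CPM in the Fzd3 mutants and 119.6, 131 and 130.1 CPM in the Celsr3 mutants, with Jun the most abundant, and 0 of them were at 0 in any library.

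**Figure D5:**
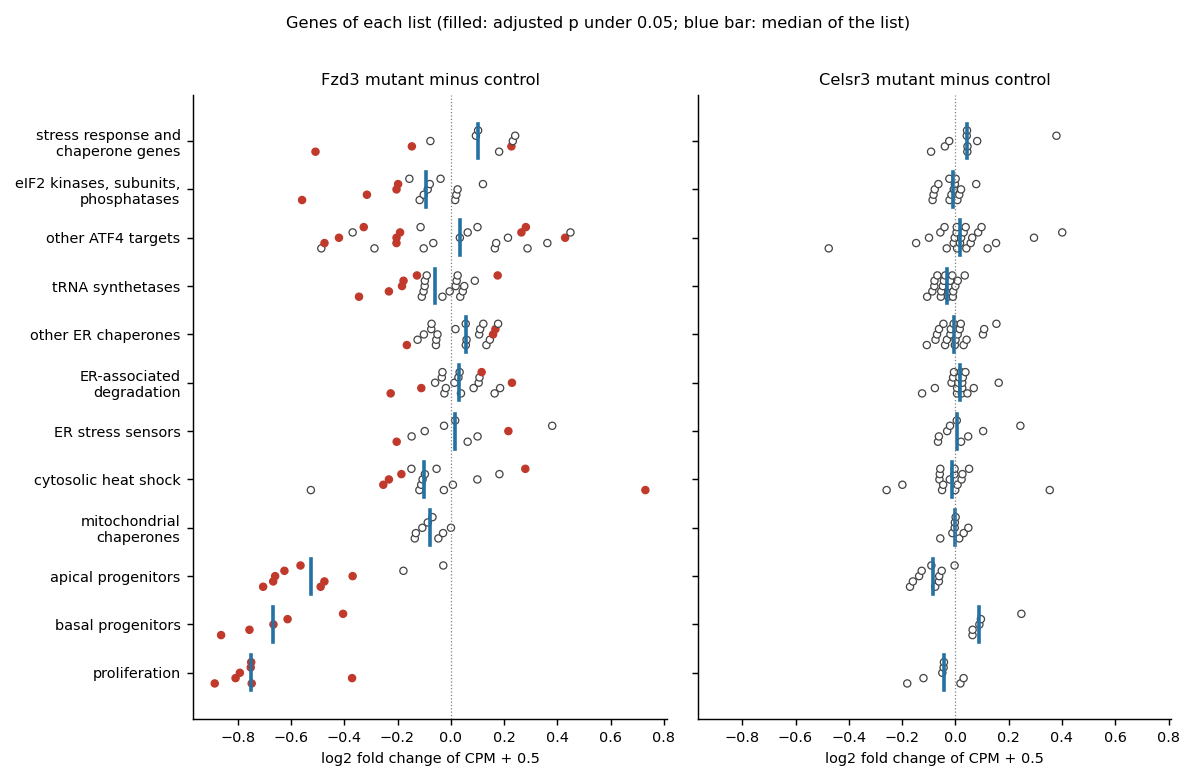
Log2 fold change of each listed gene of 12 gene lists in Fzd3 mutants (left) and Celsr3 mutants (right) against control, 1 point per gene. Points are filled where the adjusted p was under 0.05, and a blue bar marks the median of the list. Slc7a11 (1.16 in Fzd3 mutants and -0.23 in Celsr3 mutants) was left out of the points in both panels but is in its list's median. The stress lists have medians between -0.10 and 0.10 in Fzd3 mutants, whereas radial glia, intermediate progenitor and cell cycle lists have -0.53, -0.67 and -0.75.

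Markers of the cell types of the cortex moved with the Fzd3 genotype and are given as they stand beside the results above; their part in any of them was not tested. In Fzd3 mutants 8 of 10 radial glia markers fell and 0 rose (median -0.53). This was 80%, beside 29.8% of all genes called (4366 of 14670), and the counts of the lists that follow stand beside the same share. Among the radial glia markers that fell were Vim (-0.62, adjusted p = 8.14e-05), Pax6 (-0.70, adjusted p = 0.000120), Nes (-0.67, adjusted p = 0.000325) and Prom1 (-0.49, adjusted p = 0.000866). Fabp7, the highest per length, had -0.18 (adjusted p = 0.181). Markers of intermediate progenitors, 5 of 5 of them, fell (median -0.67; Eomes, Neurog2, Btg2, Insm1 and Gadd45g), and their sum stood at 409.8, 435 and 361 CPM in the controls, 231, 252 and 287 CPM in the Fzd3 mutants and 398, 453 and 460.4 CPM in the Celsr3 mutants, with Eomes the most abundant. Of 7 cell cycle genes 7 fell (median -0.75), led by Ccnb1 at -0.89 (adjusted p = 8.78e-06), and their sum stood at 864, 926 and 785 CPM in the controls, 483, 510.2 and 563 CPM in the Fzd3 mutants and 773, 839 and 887 CPM in the Celsr3 mutants, with Top2a the most abundant. The Fzd3 mutant sums of these lists lay below those of the other 6 libraries. Of 10 listed projection neuron markers (Tubb3 was not listed) 5 fell (Tbr1, Bcl11b, Neurod2, Neurod6 and Fezf2) with a median of -0.06 over the list and Dcx the most abundant, and the result for 1 further gene of the list is not reported. Neurod2 lost its call without Celsr3 mutant 2 (adjusted p = 0.0531), Fzd3 mutant 1 (adjusted p = 0.105), Fzd3 mutant 3 (adjusted p = 0.0991), control 1 (adjusted p = 0.0786) or control 2 (adjusted p = 0.133). The neuron sum stood at 6317, 6474 and 5993 CPM in the controls, 6386, 6137 and 6466 CPM in the Fzd3 mutants and 6427, 6497 and 6183 CPM in the Celsr3 mutants, and its genotypes overlapped. The 6 interneuron markers had 0 called by limma (0 unadjusted, median -0.02), with Dlx1 the highest per length.

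Some markers of vessels, microglia and the oligodendrocyte lineage rose in Fzd3 mutants. The shares called were 42.9%, 28.6% and 60%, in that order, beside 29.8% of all genes, so that of microglia was near the background. Of 7 endothelial markers 3 rose (Cldn5, Kdr and Flt1), with a median of 0.45 over the list and Kdr the most abundant. The number that rose ran from 2 to 5 over the 21 alternatives and was 5 with a replicate block, beside 3629 of all 14670 genes called. The sum of the 7 stood at 102, 104 and 107 CPM in the controls, 155, 145 and 135 CPM in the Fzd3 mutants and 112, 97.9 and 146 CPM in the Celsr3 mutants. Of 7 microglia markers 2 rose (Csf1r and C1qa, median 0.45; Csf1r the most abundant), with a sum of 35.2, 40.8 and 39.1 CPM in the controls, 60.7, 56.5 and 41.8 CPM in the Fzd3 mutants and 39.3, 41.3 and 49.6 CPM in the Celsr3 mutants. C1qa lost its call without Fzd3 mutant 1 (adjusted p = 0.0924), Fzd3 mutant 3 (adjusted p = 0.0771), control 1 (adjusted p = 0.0548) or control 2 (adjusted p = 0.0942). Of 5 markers of oligodendrocyte precursors 3 rose (Olig1, Olig2 and Pdgfra, median 0.73; Pdgfra the most abundant), with a sum of 29.4, 27.6 and 39.1 CPM in the controls, 71.2, 62.6 and 38.0 CPM in the Fzd3 mutants and 36.9, 26.9 and 32.2 CPM in the Celsr3 mutants. Fzd3 mutant 3 lay within the range of the controls in that sum. The study reported fewer Olig2-positive cells in both mutants by antibody staining at later ages. That is a count of cells by protein, and its direction is opposite to that of Olig2 RNA in Fzd3 mutants here. Olig2 lost its call without Fzd3 mutant 1 (adjusted p = 0.122), Fzd3 mutant 2 (adjusted p = 0.116), control 1 (adjusted p = 0.0973) or control 2 (adjusted p = 0.0869), and Pdgfra without Fzd3 mutant 1 (adjusted p = 0.155), Fzd3 mutant 2 (adjusted p = 0.130), control 1 (adjusted p = 0.0895) or control 2 (adjusted p = 0.142). Red blood cell markers, 7 of 9 listed (not Hbb-b1 and Hbb-b2), had 0 called by limma (0 unadjusted, median 0.11; Hba-a1 the highest per length), and the 5 listed meningeal markers 0 (1 unadjusted, median 0.15). None of 6 choroid plexus markers was listed. In Celsr3 mutants limma called 0 genes in each of the listed marker lists, beside 0.307% of all genes, so these counts say little about the lists. The medians there were -0.08 (1 unadjusted) for radial glia, 0.09 (1 unadjusted) for intermediate progenitors, -0.04 (1 unadjusted) for the cell cycle and 0.02 (3 unadjusted) for projection neurons. The medians of the others were -0.23 (2 unadjusted) for interneurons, 0.15 (1 unadjusted) for vessels, 0.09 (1 unadjusted) for microglia, -0.15 (0 unadjusted) for oligodendrocyte precursors, 0.16 (0 unadjusted) for red blood cells and 1.32 (1 unadjusted) for meninges, which Celsr3 mutant 4 sets apart. No marker of these lists was at 0 in any library.

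Over the 9 libraries with the mean of each genotype taken off, the genes most like Asns were Sparcl1 (Pearson r 0.989), Fbxl15 (0.982) and Gorasp2 (0.977), and those most like Hspa5 were Frem1 (0.978) and Cep72 (0.977), with 1 further gene not reported. These were taken as the highest of 14670 genes and are a description, with no p. Among the other listed stress genes the r with Asns ran from -0.42 (Psat1) to 0.69 (Chac1), and that with Hspa5 from -0.27 (Chac1) to 0.72 (Psat1). Asns and Hspa5 themselves, 1 from each arm, had an r of -0.09. Across genes, the log2 values of Fzd3 mutant libraries correlated at 0.994 to 0.997 among themselves and at 0.9749 to 0.986 with the other 6, which correlated at 0.989 to 0.994, and genes are not independent replicates.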

How the data were processed

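RNA from 9 cortical samples (3 control, 3 Fzd3 mutant and 3 Celsr3 mutant) was measured by RNA sequencing. The authors deposited 1 table of CPM values, made by a sequencing company, with a further scaling factor per library. Genes of little expression were already left out (lowest mean 0.540 CPM). Why a given gene is not listed is not stated, so its absence is not a measure of its expression. The submitters' processing notes name FastQC, TopHat, TopHat2, Bowtie, Cufflinks 2.1.1 and edgeR 2.12 and the builds GRCm38 and GRCh37, with no role given. Genotypes came from the labels. Depth was read from the step of each column.

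Genotypes were compared with limma 3.58.1 in R 4.3.3. A single model of log2(CPM + 0.5) held the 9 libraries with no replicate block, and eBayes let the variance follow abundance. All 14670 genes reached the minimum mean of 0.5 CPM and were tested. Benjamini-Hochberg adjustment of the two-sided p-values ran over them, with a threshold of 0.05. The fit was tested on simulated data. Tables and figures used numpy 2.4.6, pandas 2.3.3 and matplotlib 3.10.9 under Python 3.11.15. Symbols were matched to the GENCODE annotation of GRCm38, 13781 by symbol and 635 by an older symbol, and promoters came from RefSeq on GRCm38.

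The members and the lists were chosen with earlier results of these data known. Genes were named by a rule: the members, the eIF2alpha kinases and phosphatase subunits, Ern1, Atf6, the mutated genes, for each other list and mutant up to 4 genes of smallest p that passed the test and averaged 1 CPM or more, the gene of each list highest per kb, and the 3 genes most like Asns and Hspa5. Most other genes are said to have been named after their values were seen. Slc7a11, Tbr1, Neurod2, Gadd45g, Top2a, Dcx and Hsp90b1 are also outside the rule and are to be read in the same way. Some genes that met the rule are not printed, among them Mcm5, Mcm2 and Cdk1. The fit was repeated under 21 alternatives, 19 of them planned (pseudocount, filter, scaling, libraries in the fit, replicate block, moderation of variances and each library left out). The other 2, log2 Xist as a covariate and only libraries with Xist above 1 CPM, were chosen after seeing the data.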

Additional observations from a re-analysis of the deposited data

Results flagged for a closer look

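A pair of the genes followed differed between the mutants when Fzd3 and Celsr3 mutants were compared directly in the same limma fit, each mutant having been compared with the same 3 controls. They were 2 of 9 (22.2%), beside 29.6% of all genes called in that comparison. Asns was higher in Fzd3 than in Celsr3 mutants by 0.28 on the log2 scale (adjusted p = 0.0340), a call lost in 8 of 21 alternatives, among them the replicate block. Psat1 had a log2 difference of -0.42 (adjusted p = 0.00141), called in each of the 21. Groups of 3 libraries are too small for a test of single libraries that lie far from the others.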

How the results depend on the processing

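No filter on low values changed nothing, because all genes passed the filter, so that 1 of the 21 alternatives repeats the values reported. Of 564 fold changes of the 9 genes recomputed (list genes are not counted here), 517 kept their direction and side of the threshold, 27 kept their direction and lost the call, 8 kept it and gained one, and 12 changed sign. Where a value changed, the cause was not tested. In Fzd3 mutants 1 of the 9 genes was called with a replicate block, beside 3629 of all 14670 genes. With log2 Xist as a covariate 1 of the 9 was called, beside 3893 of all genes, and with a library left out 1 to 4. Genes called in Fzd3 mutants ranged from 2958 to 4312 with a library left out. In Celsr3 mutants 29 genes were called with the block, 24 with the ordinary test per gene, and 39 to 53 with a library left out. Between the mutants 2101 genes were called with the block and 2971 to 4471 with a library left out. Of the 9 genes 1 was called with the block, without the trend, with the ordinary test and with only the libraries high in Xist. With a library left out 1 to 2 were called. Of all genes 3857 were called there without the trend, 3287 with the ordinary test and 3336 with only the libraries high in Xist. The ratio of the highest to the lowest level was 310.3 in CPM and 120.1 per kb.

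With only the libraries high in Xist, Ddit3 had 0.000728 in Fzd3 mutants and Asns 0.0644 in Celsr3 mutants, and with the block Hspa5 had -0.0402 in Celsr3 mutants. With a library left out, the log2 fold change of Ddit3 ran from -0.12 to 0.000728 in Fzd3 mutants and from -0.000169 to 0.12 in Celsr3 mutants, and that of Chac1 between the mutants from -0.29 to 0.11. In Celsr3 mutants Asns ran from -0.14 to 0.0440, Hspa5 from -0.0601 to 0.11, Herpud1 from -0.000536 to 0.0786 and Xbp1 from -0.0122 to 0.11. Between the mutants Hspa5 ran from -0.0199 to 0.15 and Herpud1 from -0.0142 to 0.10.

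Over genes, with the genotype means taken off, the correlation of same-numbered libraries of different genotypes ran from -0.199 (control 3 and Fzd3 mutant 3) to 0.192 (Fzd3 mutant 1 and Celsr3 mutant 1), and that of libraries with different numbers from -0.1625 to 0.188. Tests for counts on recovered reads were planned and were not run, and CPM alone were used. With a mean of at least 5 CPM required, Chac1 was not tested. Counting error at 3 reads (0.0427 to 0.0752 CPM) limits Chac1 most.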
